A study of Mus musculus with 3 samples.

Results

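Of 8877 tumor cells kept after filtering, 228 carried at least 5 UMIs in total of 8 genes of the cell division cycle, Top2a, Mki67, Birc5, Cdk1, Ube2c, Cenpf, Nusap1 and Ccnb2, and are called cycling cells here; they were chosen by these measured values. A UMI (unique molecular identifier) is the count of 1 captured RNA molecule. There were 38 cycling cells among 4434 cells of the Treg-depleted tumor and 190 among 4443 cells of the control tumor. They were compared with the cells that had no UMI of any of the 8 genes, called non-cycling, which numbered 4153 in the Treg-depleted tumor and 3654 in the control tumor. The remaining 243 and 599 cells, with 1 to 4 UMIs, entered neither class. The whole series held 14427 kept cells in 3 libraries, and the remaining library, blood of a tumor-bearing control mouse, had 19 cycling cells among 5550.

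Both tumors were subcutaneous B16F10, a transplantable mouse melanoma, grown in C57BL/6J mice. The first came from a mouse labelled FoxP3 DTR and Treg-depleted, and the second from a mouse labelled WT with control treatment. FoxP3 DTR mice express the diphtheria toxin receptor under control of the gene that marks regulatory T (Treg) cells, so that toxin removes those cells. The labels give no toxin dose or schedule, do not say whether the control mouse received toxin, and do not give the number or age of mice behind a library. Depletion, genotype and library therefore cannot be told apart. Viable cells were sorted as positive for CD45 and for CD11b, CD11c or both, and negative for CD90, NK1.1, Ly6G, B220 and SigF, a gate that holds monocytes, macrophages and dendritic cells (DC). With 1 library in each group, no p-value is given. Brackets hold exact 95% intervals, which cover counting error only and neither mice nor libraries.

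Dividing cells pass through DNA replication (S phase) and mitosis. Top2a untangles replicated DNA, Cdk1 with the cyclin Ccnb2 drives entry into mitosis, and Birc5 sits on chromosomes as they separate. Cenpf binds kinetochores, Nusap1 binds spindle microtubules, Ube2c helps the ubiquitin system end mitosis, and Mki67 coats mitotic chromosomes. Mononuclear phagocytes differ in how they are replenished. Conventional DC arise from dividing precursors under the growth factor receptor Flt3 and keep some division in tissues, monocytes leave the marrow as largely non-dividing cells marked by Ly6c2, and resident macrophages, many of them rich in the complement proteins C1qa, C1qb and C1qc, can divide in place. Xcr1 and Clec9a mark the cross-presenting DC class called cDC1.

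Genes of this set share promoter elements, and the 250 bases before the start site are shown for 3 of them that carry both kinds searched. The first kind is the cell cycle gene homology region, searched as TTTGAA or TTCGAA on both strands (TTCAAA is the reverse of the first, and TTCGAA is its own reverse). The second is the CCAAT box, searched as CCAAT on both strands (ATTGG in reverse). Capitals mark every match. The sequences are from RefSeq on GRCm38.p6, printed 5′ to 3′ on the strand of the gene: Top2a at chr11:99024190-99024439 on the minus strand, Cdk1 at chr10:69352913-69353162 on the minus strand, and Ube2c at chr2:164769679-164769928 on the plus strand.
Top2a: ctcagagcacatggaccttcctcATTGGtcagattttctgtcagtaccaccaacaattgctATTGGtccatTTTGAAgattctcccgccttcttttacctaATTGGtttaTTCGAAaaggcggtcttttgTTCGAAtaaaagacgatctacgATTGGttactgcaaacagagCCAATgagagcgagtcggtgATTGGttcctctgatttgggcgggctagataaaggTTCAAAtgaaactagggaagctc
Cdk1: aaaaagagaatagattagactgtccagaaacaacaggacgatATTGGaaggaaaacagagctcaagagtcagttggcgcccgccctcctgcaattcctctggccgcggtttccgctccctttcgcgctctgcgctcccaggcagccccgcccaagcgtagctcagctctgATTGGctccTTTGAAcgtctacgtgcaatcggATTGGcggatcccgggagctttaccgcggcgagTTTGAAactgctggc
Ube2c: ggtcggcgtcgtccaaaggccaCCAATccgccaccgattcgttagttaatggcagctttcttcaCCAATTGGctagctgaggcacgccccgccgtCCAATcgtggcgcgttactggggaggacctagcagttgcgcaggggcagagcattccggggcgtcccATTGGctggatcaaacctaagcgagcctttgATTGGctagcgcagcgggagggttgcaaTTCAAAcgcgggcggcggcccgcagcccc
The Top2a window held 4 matches of the first kind and 6 CCAAT boxes, the Cdk1 window 2 and 3, and the Ube2c window 1 and 6, of which 2 overlap within one run of letters. The nearest match of the first kind lay 12 bases before the start of Cdk1, 20 before that of Top2a and 26 before that of Ube2c. At least 1 match of the first kind was present for 5 of the 8 genes (62.5%), against 17.1% of 32851 mouse promoters of the same length. At least 2 CCAAT matches were present for 6 of 8 (75%), against 10.1% of all promoters, and both features for 5 of 8, against 1.71%. The windows of Birc5 and Nusap1 held neither motif, which says only that these letters are not in these windows. Among 50 promoters of other mitotic genes, 38% held the first motif, 46% held at least 2 CCAAT matches and 18% held both, and among 34 promoters of DNA replication genes the shares were 17.6%, 32.4% and 5.88%.

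One of the 38 cycling cells of the Treg-depleted tumor was not a myeloid cell by its RNA. It held 820 UMIs of 7 melanoma genes, among them 387 of Dct, 191 of Mlana and 163 of Pmel, with 0 UMIs of the leukocyte gene Ptprc (CD45), 1 of Tyrobp and 3 of Lyz2. This cell was the deepest of the class, with 35018 UMIs (7.96% of all UMIs of the 38 cells), and its sum of the 8 genes was exactly 5. The other 37 held 0 melanoma UMIs, and no cycling cell of the control tumor held more than 4. Shares below count all 38 cells, whereas gene levels are those of the 37 others unless stated, a choice made after the data were seen.

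Genes of the gate and of myeloid cells were found in the 37 and 190 cells, most of them at lower levels than in non-cycling cells. Tyrobp, an adaptor of myeloid receptors, stood at 997 CPM (a gene's share of the summed UMIs of a class, on the usual CPM scale) in cycling and 2197 CPM in non-cycling cells of the Treg-depleted tumor, and at 2080 and 3044 CPM in the control tumor. Ptprc stood at 202 and 292 CPM in the Treg-depleted tumor, and at 227 and 322 CPM in the control tumor. Itgam (CD11b) stood at 74.0 and 300 CPM in the Treg-depleted tumor, and at 98.8 and 122 CPM in the control tumor. Itgax (CD11c) stood at 56.8 and 54.7 CPM in the Treg-depleted tumor, and at 45.6 and 36.9 CPM in the control tumor. Markers of lymphocytes, which the gate should exclude, were scarce. Of the T cell list, with 6 of its 8 genes in the gene table, the cycling cells held 2.47 CPM in the Treg-depleted tumor and 1.58 CPM in the control tumor, and the NK cell list 0 and 0.263 CPM. The B cell list held 0 and 3.69 CPM, and the basophil and mast cell list 0 CPM in both.

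Cycling cells were deep cells. Their median depth was 9547 UMIs in the Treg-depleted tumor, against 3745 in non-cycling cells, and 18233.5 UMIs in the control tumor, against 5862.5. The threshold on a sum of counts itself favours deep cells, and what part of the difference it gives was not tested. In the Treg-depleted tumor 6 cells stood just inside the threshold with a sum of 5, with a median depth of 4622.5 UMIs, and 13 just outside it with a sum of 4, with a median depth of 5619. In the control tumor 22 cells stood just inside, with a median depth of 13589.5 UMIs, and 25 just outside, with 15220. Sums of more than 12 UMIs were found in 14 cells of the Treg-depleted tumor and 82 cells of the control tumor, and the highest sums were 95 and 74.

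**Figure D1:**
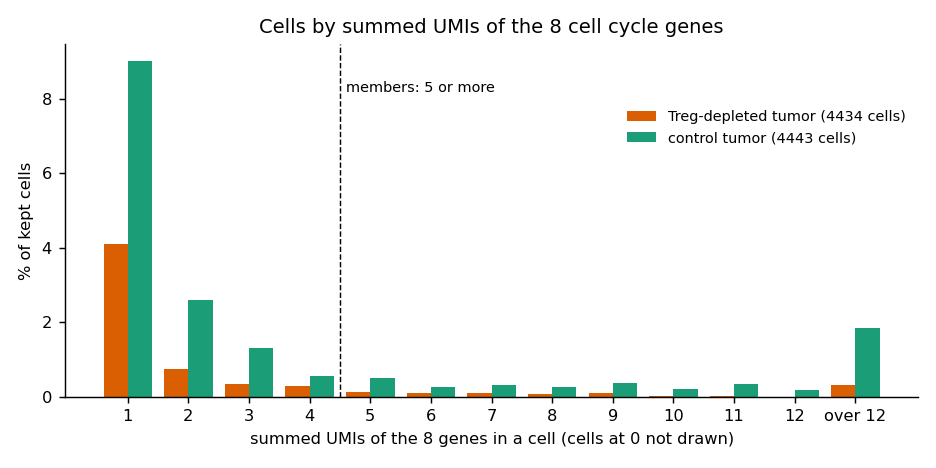
Percent of kept cells (vertical axis) by their summed UMIs of the 8 cell cycle genes (horizontal axis), for the Treg-depleted tumor (left bar of each pair) and the control tumor (right bar). Bars right of the dashed line are the 38 and 190 cycling cells; at every sum drawn the bar of the control tumor is the higher one.

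The share of cycling cells was 0.857% (0.607 to 1.17) in the Treg-depleted tumor and 4.28% (3.70 to 4.91) in the control tumor. In control blood it was 0.342% (0.206 to 0.534). The kept cells of the tumors differed in depth, with medians of 3820 and 6452 UMIs, so every cell was also thinned at random to 3000 UMIs, which left out 1612 shallower cells of the Treg-depleted tumor and 480 of the control tumor. With the threshold of 5 UMIs kept, 12 of 2822 cells of the Treg-depleted tumor (0.425%, 0.220 to 0.742) and 36 of 3963 of the control tumor (0.908%, 0.637 to 1.26) then counted as cycling, and these intervals overlap. With a threshold of 3 UMIs after thinning, the shares were 0.850% (0.546 to 1.26) and 2.04% (1.63 to 2.53), and the intervals do not overlap. Over all kept cells the 8 genes stood at 46.7 CPM (43.7 to 49.9) in the Treg-depleted tumor and 97.9 CPM (94.8 to 101) in the control tumor, a measure that needs no threshold per cell. Barcodes of at most 50 UMIs, which hold RNA free in the suspension, carried 55.3 and 97.5 CPM of the same genes. Cycling cells nevertheless held 61.9% and 76.1% of all UMIs of the 8 genes found in kept cells. Fewer cells in division and less of their RNA among the captured molecules cannot be told apart from these totals.

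The 8 genes were not present in the same proportions in the cycling cells of both tumors. Top2a gave 29.6% of their summed UMIs in the Treg-depleted tumor and 20.1% in the control tumor. Ccnb2 gave 4.99% and 14.1%. Birc5 gave 22.3% and 24.9%, Ube2c 16.2% and 15.1%, and Mki67 8.56% and 8.51%. Of the 91 Ube2c UMIs in the Treg-depleted tumor, 39 came from 1 cell. Leaving out Top2a lowered the share of cycling cells to 0.541% in the Treg-depleted tumor and to 3.98% in the control tumor, and leaving out Ccnb2 left it at 0.857% in the Treg-depleted tumor and lowered it to 3.69% in the control tumor.

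The genes that tell myeloid types apart differed between cycling and non-cycling cells in ways that were not the same in both tumors. Summed C1qa, C1qb and C1qc stood at 908 CPM in the 37 cycling cells of the Treg-depleted tumor and 1037 CPM in non-cycling cells, a log2 ratio of -0.19 (-0.34 to -0.04). With all 38 cells the cycling level was 838 CPM and the log2 ratio -0.31 (-0.46 to -0.16), and after thinning to 3000 UMIs with the threshold of 5 the sign turned, to 0.16 (-0.31 to 0.60). Against non-cycling cells of similar depth the log2 ratio of all 38 cells was -0.35 (-0.51 to -0.20). For the 37 cells it was 0.24 against non-cycling cells weighted to the clusters in which the cycling cells were placed, described further on. Much of the C1q of these cycling cells came from few cells, which the counting intervals do not cover. The 3 cycling cells placed in cluster 3, led by Vcan and Qpct, held 5310 CPM of C1q. Theirs were 51 of the 96 C1qa UMIs, 84 of the 152 of C1qb and 51 of the 120 of C1qc. By cell they held 0.980, 96.0 and 56.2 C1q UMIs per 10000 UMIs, so the first gave little of it. C1q of the control tumor stood at 7735 CPM in cycling and 4672 CPM in non-cycling cells, a log2 ratio of 0.73 (0.71 to 0.75). Against non-cycling cells of similar depth it was 0.25, and weighted to the same clusters 0.13. Free RNA carried 1140 CPM of C1q in the Treg-depleted tumor and 5961 CPM in the control tumor.

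Ly6c2, the monocyte surface antigen, was lower in cycling cells of both tumors. It stood at 326 CPM in cycling and 1146 CPM in non-cycling cells of the Treg-depleted tumor, a log2 ratio of -1.81 (-2.07 to -1.57), or -1.92 with all 38 cells. The control tumor had 157 and 620 CPM of Ly6c2, a log2 ratio of -1.98 (-2.10 to -1.86), or -1.16 against non-cycling cells of similar depth.

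Flt3 and Xcr1 were higher in cycling cells of both tumors. Flt3 stood at 44.4 CPM in cycling and 4.16 CPM in non-cycling cells of the Treg-depleted tumor, a log2 ratio of 3.42 (2.58 to 4.18), and at 22.4 and 12.9 CPM in the control tumor, a log2 ratio of 0.80 (0.44 to 1.15). Xcr1, the receptor of the chemokine XCL1, stood at 61.7 and 1.08 CPM in the Treg-depleted tumor, a log2 ratio of 5.83 (4.91 to 6.77), and at 22.4 and 5.29 CPM in the control tumor, a log2 ratio of 2.08 (1.68 to 2.48). These levels rest on few molecules: the 25 Xcr1 UMIs of the Treg-depleted tumor came from 7 of the 37 cells, and 14 of them from 1 cell, while the 85 of the control tumor came from 29 cells, with at most 11 in 1 cell. Weighted to the same clusters, the log2 ratio of Flt3 was 1.24 in the Treg-depleted tumor and 0.08 in the control tumor, and that of Xcr1 was 3.19 and 1.04. Cd209a, a lectin of the other conventional DC class (cDC2), stood at 61.7 CPM in cycling and 27.0 CPM in non-cycling cells of the Treg-depleted tumor, and at 57.4 and 73.1 CPM in the control tumor, and weighted to the same clusters its log2 ratio was negative in both, at -1.40 and -0.54. H2-Aa, an MHC class II chain, stood at 6583 and 3623 CPM in the Treg-depleted tumor, and at 7871 and 8061 CPM in the control tumor.

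**Figure D2:**
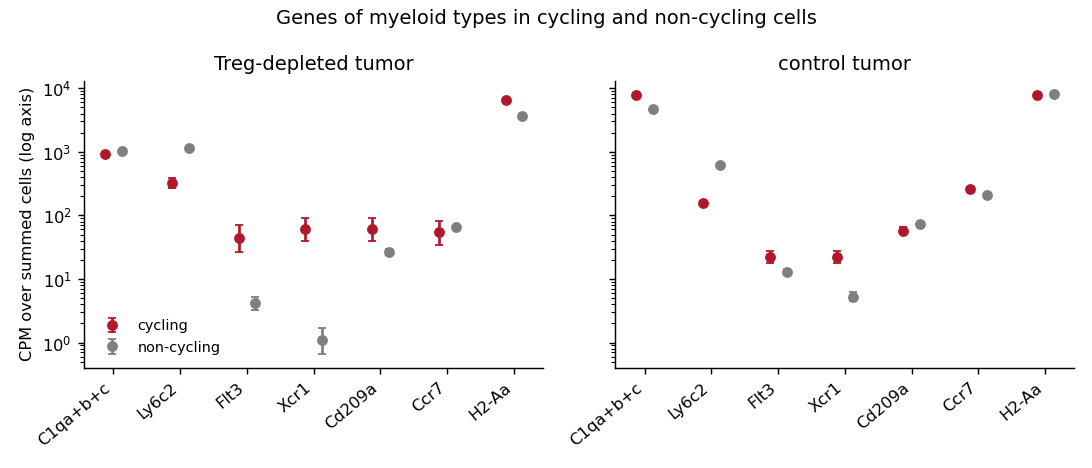
CPM over summed cells (log axis) of genes that mark myeloid types, in cycling (left point of each pair) and non-cycling cells (right point) of the Treg-depleted tumor (left panel, 37 cycling cells) and the control tumor (right panel, 190 cycling cells); bars are exact 95% counting intervals. Ly6c2 is lower and Flt3 and Xcr1 are higher in cycling cells of both tumors, while C1q is higher in cycling cells of the control tumor only, on this measure.

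In single cells, C1q and DC genes were found in sets of cycling cells that overlapped in part. C1q above the pooled level of the non-cycling cells of the same tumor (their summed C1q over their summed UMIs) was found in 10 of 37 cycling cells of the Treg-depleted tumor and 127 of 190 of the control tumor, against 1233 of 4153 and 1032 of 3654 non-cycling cells. At least 2 UMIs of Flt3, Xcr1 and Clec9a together were found in 8 of 37 and 38 of 190 cycling cells, against 41 of 4153 and 157 of 3654 non-cycling cells, which were shallower. Both features met in 1 cycling cell of the Treg-depleted tumor and 14 of the control tumor. The minimum of 2 UMIs was not scaled to the depth of a cell. Free RNA of the control tumor carried 14.8 CPM of Flt3 and 24.1 CPM of Xcr1 and Clec9a together. What depth, free RNA and droplets with 2 cells gave to this overlap was not tested. Median C1q was 0.705 UMIs per 10000 UMIs of a cycling cell in the Treg-depleted tumor and 72.6 in the control tumor, and the highest values were 96.0 and 259. No C1q UMI was found in 16 of 37 and 9 of 190 cycling cells.

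**Figure D3:**
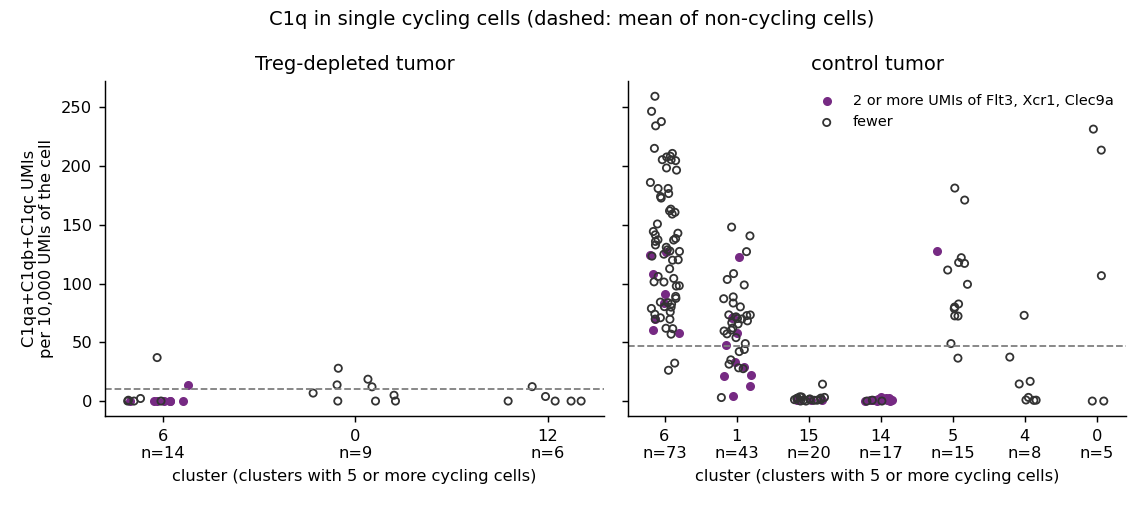
C1q UMIs per 10000 UMIs of each cycling cell (vertical axis), by the cluster in which it was placed (horizontal axis, clusters with at least 5 cycling cells, ordered by their number of cycling cells), in the Treg-depleted tumor (left panel) and the control tumor (right panel). Filled points are cells with at least 2 UMIs of Flt3, Xcr1 and Clec9a. The dashed line, called a mean in the title, is the pooled level of the non-cycling cells (summed C1q over summed UMIs). In the control tumor, 71 of 73 points of cluster 6 lie above the line and no point of clusters 14 and 15 does.

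To place the cycling cells, the non-cycling cells of each tumor were clustered alone, without genes of the cell cycle lists, and each cycling cell was assigned to the cluster that most of its 20 nearest non-cycling cells belonged to. Held-out non-cycling cells were placed in their own cluster in 85.1% of 415 and 92.1% of 365 cases. Cluster numbers are separate for each tumor. In the Treg-depleted tumor the most cycling cells, 14 of 235 (5.96%, 3.29 to 9.79), were placed in its cluster 6, led by Plet1, Ly6d, Ccl17 and Mgl2. Those 14 cells held 96.5 CPM of Xcr1, 72.4 CPM of Flt3, 109 CPM of Clec9a and 133 CPM of Itgae, an integrin of cDC1, against 10.7 CPM of Xcr1 and 22.7 CPM of Flt3 in the non-cycling cells of the cluster. All 8 cycling cells of this tumor with at least 2 UMIs of Flt3, Xcr1 and Clec9a were among these 14 cells. Their levels rest on few molecules: 24 UMIs of Xcr1, 18 of Flt3, 27 of Clec9a and 33 of Itgae. Of Flt3, Xcr1 and Clec9a together, the highest single cells held 20 and 19 UMIs. The Itgae UMIs came from 6 cells. The cluster also holds Cd209a (44.2 CPM in cycling and 219 CPM in non-cycling cells), so it mixes both DC classes and stays unnamed. The small and shallow cluster 12, with Clec4b1 and Cd209a among its leading genes, had 6 of 80 (95% interval 2.80 to 15.6%), whose cells held 975 CPM of Cd209a from 14 UMIs. Cluster 0, led by Gbp2b, Rnase2a and Retnla, had 9 of 648 (1.39%, 0.637 to 2.62). The cycling cells of cluster 6 had a median of 17247 UMIs and those of cluster 0 a median of 4954 UMIs. At 3000 UMIs per cell with a threshold of 3, the shares were 8 of 215 (3.72%) in cluster 6 and 9 of 350 (2.57%, 1.18 to 4.83) in cluster 0, so the share of cluster 6 lay within the interval of cluster 0.

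The cluster richest in C1qa was not the one with most cycling cells in the Treg-depleted tumor. The highest level, 909 CPM, was in cluster 2, led by Cbr2, Ccl8 and Mrc1, where 1 of 306 cells was cycling (0.327%, 0.00827 to 1.81). None was found among 247 cells of cluster 9, led by Hp and Ifitm6 and rich in Ly6c2, which allows a share of up to 1.21%, nor among 163 cells of cluster 10, led by Spic, Treml4 and Ace, which allows up to 1.84%. Nor was one found among 700 cells of cluster 4, led by Hspb1 and Hspa1a (up to 0.429%), 431 cells of cluster 8, led by Cxcl1 and Serpinb2 (up to 0.696%), or 247 cells of cluster 11, led by S100a9 and G0s2 (up to 1.21%).

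Of the 619 cells of cluster 6 of the control tumor, 73 were cycling (11.8%, 9.36 to 14.6), which is 38.4% of all cycling cells there. This cluster was led by Vcam1, C1qa, C1qc and Ms4a7 and is macrophage-like by those markers; its 73 cycling cells held 3926 CPM of C1qa and 4727 CPM of Apoe, a lipid carrier of macrophages. The smaller cluster 14, led by Plet1, Itgae and Xcr1 and cDC1-like by those markers, had the highest share in that tumor, 17 of 111 cells (15.3%, 9.18 to 23.4). Its cycling cells held 181 CPM of Xcr1, 126 CPM of Flt3 and 141 CPM of Clec9a, and 122 CPM of C1q. Cluster 15, led by Cd209a and cDC2-like with Mgl2 among its leading genes, had 20 cycling of 284 cells (7.04%, 4.35 to 10.7). Its cycling cells held 443 CPM of Cd209a and 713 CPM of Ccr7, against 688 and 919 CPM in its non-cycling cells.

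Cluster 1 of the control tumor could not be named. It was led by Fscn1, Il12b, Ccl22 and Il4i1, genes of DC that have taken up the CCR7 programme, yet its non-cycling cells also held 1308 CPM of C1qa. It had 43 cycling of 381 cells (11.3%, 8.29 to 14.9). Of these 43 cells, 30 had C1q above the pooled level of non-cycling cells, 11 had at least 2 UMIs of Flt3, Xcr1 and Clec9a, and 5 had both. In them Fscn1, a bundler of actin, stood at 78.9 CPM, against 318 CPM in the non-cycling cells of the cluster, and Ccr7 at 562 CPM, against 807 CPM. The cluster was deep, with a median of 25409 UMIs in cycling and 13529.5 in non-cycling cells, and 6 of the 9 cycling cells of this tumor marked as doublets (2 cells in 1 droplet) were placed in it. At 3000 UMIs per cell with a threshold of 3, its share was 2.13% (0.923 to 4.15), against 4.93% (3.35 to 6.97) in cluster 6, 9.35% (4.57 to 16.5) in cluster 14 and 3.91% (1.97 to 6.90) in cluster 15.

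No cycling cell was placed in several clusters of the control tumor. None was found among 439 cells of the monocyte-like cluster 12, led by Cd177, Hp and Chil3, which allows a share of up to 0.683%, and none among 374 cells of cluster 11, led by Ace, Treml4 and Spic, which allows up to 0.802%. None was found among the 70 cells of cluster 13, led by Siglech and Ccr9 as plasmacytoid DC are, which allows up to 4.29%. At 3000 UMIs per cell with a threshold of 3, the exact intervals of clusters 12, 11 and 13 reached 0.874, 1.18 and 5.13%. Several other C1q-expressing clusters had smaller shares than cluster 6 over all their cells. Cluster 2, led by Cbr2, Folr2 and Mrc1, had 3 of 381 (0.787%, 0.163 to 2.28), and cluster 5, led by Mmp12 and Arg1, had 15 of 371 (4.04%, 2.28 to 6.58). Cluster 0, led by Ccl12 and Ccl8, had 5 of 167 (2.99%, 0.979 to 6.85), and at 3000 UMIs per cell 5 of 78 (6.41%, 2.11 to 14.3), beside 4.93% in cluster 6.

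Clusters with at least 2 times the Flt3 level of all non-cycling cells of the tumor held 57.9% (40.8 to 73.7) of cycling and 8.64% of non-cycling cells of the Treg-depleted tumor, and 42.1% (35.0 to 49.5) and 16.4% in the control tumor. Clusters with at least 1.5 times the C1q level held 26.3% (13.4 to 43.1) and 21.6% in the Treg-depleted tumor, and 38.4% (31.5 to 45.7) and 13.8% in the control tumor. The Flt3-high clusters were 6, 7 and 12 of the Treg-depleted tumor, and 1, 13, 14 and 15 of the control tumor. In clusters 7 and 12 the cycling cells held 0 Flt3 UMIs. Of the 80 cycling cells in Flt3-high clusters of the control tumor, 43 were in the unnamed cluster 1, with 6377 CPM of C1q. The Flt3-high share is therefore not a share of DC. C1q-high were clusters 0 and 2, and in the control tumor 6 and 7. Both multiples were set after the data were seen, and the split in the control tumor changed with the clustering: at Leiden resolution 0.5 the Flt3-high clusters held 26.8% and the C1q-high clusters 66.8% of its cycling cells.

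**Figure D4:**
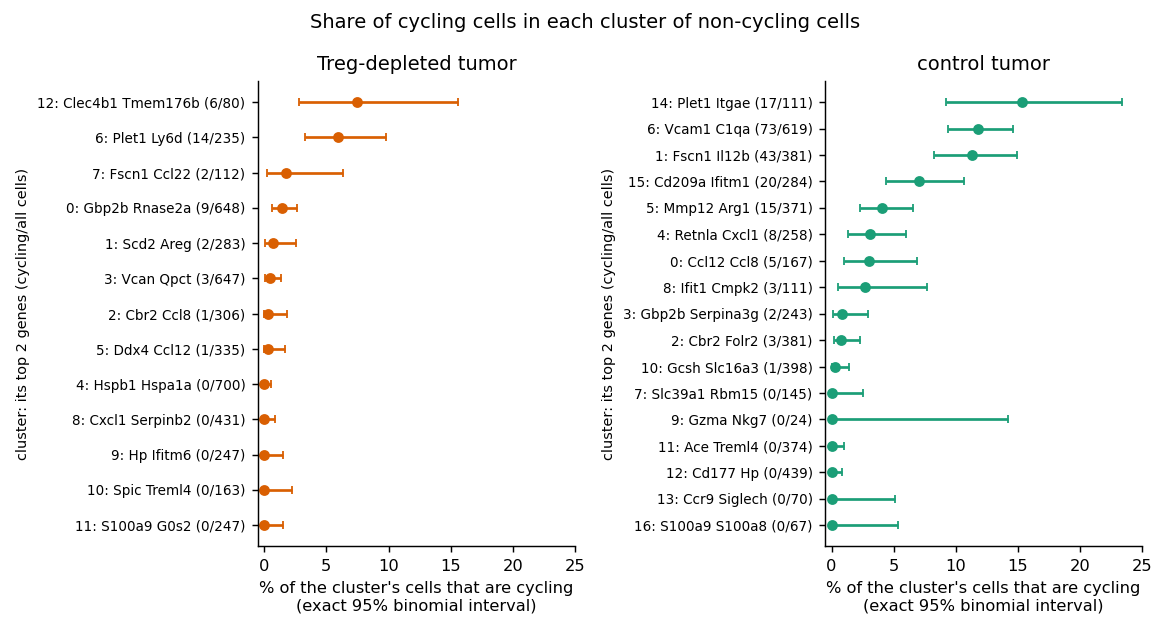
Percent of the cells of each cluster that are cycling (horizontal axis, points, with exact 95% binomial intervals as bars) for the clusters of the Treg-depleted tumor (left panel) and the control tumor (right panel), each named by its number, its first 2 leading genes and its cycling and total cells. The highest points are cluster 12 (6 of 80 cells) of the Treg-depleted tumor and cluster 14 (15.3%) of the control tumor, and the clusters led by Hp or Cd177 and by Treml4 with Spic or Ace lie at 0.

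Beyond the 8 genes used to choose them, cycling cells held more of many other genes of the division lists. These differences come from the same contrast as the rule and are described without a test. In cycling cells of the Treg-depleted tumor 8.31% of 5690 genes compared were higher by 2-fold or more and 17% lower by as much, or 9.11% and 15.8% with all 38 cells. Of 10032 genes compared in the control tumor, 5.37% were higher and 3.91% lower by as much. Of 32 DNA replication genes, 7 passed the minimum for comparison in the Treg-depleted tumor, and 5 of those were at least 2-fold higher, with a median log2 ratio of 1.36 beside -0.07 over all genes compared. All 32 could be compared in the control tumor, and 29 were at least 2-fold higher, with a median of 2.34 beside 0.05 over all genes. The whole list, compared or not, stood at 2392 CPM in cycling and 384 CPM in non-cycling cells of the Treg-depleted tumor, and at 1204 and 411 CPM in the control tumor. The minimum for comparison was set on the level pooled over both classes, so it left out genes scarce in non-cycling cells. None of the 8 genes used to choose the cells passed it in the Treg-depleted tumor. Some genes named below for that tumor did not pass it either. The list medians of the 2 tumors therefore rest on different genes.

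Among genes outside the cell cycle lists with at least 50 CPM and 100 UMIs, the highest fold in both tumors was that of 2810417H13Rik, annotated as Pclaf, which binds the replication clamp PCNA. It stood at 728 CPM in cycling and 1.82 CPM in non-cycling cells of the Treg-depleted tumor, a log2 ratio of 8.64 (8.11 to 9.22), and at 305 and 4.16 CPM in the control tumor, a log2 ratio of 6.20 (5.91 to 6.49). Rrm2, a subunit of ribonucleotide reductase, stood at 178 and 1.31 CPM in the Treg-depleted tumor and at 58.2 and 1.65 CPM in the control tumor. Pcna itself stood at 291 and 113 CPM in the Treg-depleted tumor, and at 138 and 86.8 CPM in the control tumor, a smaller difference from a higher level in non-cycling cells. Hist1h1b, a linker histone of replicating cells, stood at 104 and 1.31 CPM in the Treg-depleted tumor and at 63.5 CPM in cycling cells of the control tumor, whose non-cycling cells held 32 UMIs in all.

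Genes of chromosomes and mitosis were also higher. In the Treg-depleted tumor 8 of 9 genes of histones and chromosome structure compared were at least 2-fold higher, with a median log2 ratio of 2.43, as were 3 of 5 spindle genes. Few genes of the mitotic lists passed the minimum for comparison there: 5 of 28 spindle genes were compared, 1 of 20 kinetochore and checkpoint genes, which was higher, and 4 of 16 genes of mitotic entry and exit, of which 2 were higher. Of 18 kinetochore and checkpoint genes compared in the control tumor, 17 were at least 2-fold higher, with a median of 3.99, as were 16 of 18 spindle genes (3.49), 9 of 12 genes of mitotic entry and exit (2.66) and 17 of 19 genes of histones and chromosome structure (2.33). Stmn1, a destabiliser of microtubules, stood at 918 CPM in cycling and 20.7 CPM in non-cycling cells of the Treg-depleted tumor, and at 636 and 42.7 CPM in the control tumor. Ccna2, the cyclin of S and G2 phase, stood at 59.2 and 0.171 CPM in the Treg-depleted tumor and at 32.9 and 0.150 CPM in the control tumor. Hmgb2, a chromatin protein, stood at 1651 and 240 CPM in the Treg-depleted tumor and at 735 and 186 CPM in the control tumor.

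Regulators of the step from rest to division differed less. Of 6 genes of the G1 cyclin and E2F list compared in the Treg-depleted tumor, 2 were at least 2-fold higher, with a median log2 ratio of 0.62. Of 17 genes of the G1 cyclin and E2F list compared in the control tumor, 7 were at least 2-fold higher, with a median of 0.67. E2f1, a transcription factor of S phase genes, stood at 29.6 CPM in cycling and 6.38 CPM in non-cycling cells of the Treg-depleted tumor, and at 21.6 and 9.07 CPM in the control tumor. Ccnd3 stood at 101 and 26.3 CPM in the Treg-depleted tumor, and at 41.1 and 38.5 CPM in the control tumor. Among inhibitors of division, Btg1 was lower in both, at 1439 and 3413 CPM in the Treg-depleted tumor, a log2 ratio of -1.25 (-1.37 to -1.13), and at 1278 and 2551 CPM in the control tumor, a log2 ratio between -1.04 and -0.95. Cdkn1a (p21) differed little, with 775 and 902 CPM in the Treg-depleted tumor, and 876 and 1015 CPM in the control tumor. Cdkn2c, an inhibitor of Cdk4 and Cdk6, was higher in cycling cells, with 27.1 and 2.05 CPM in the Treg-depleted tumor, and 15.5 and 3.45 CPM in the control tumor. In the Treg-depleted tumor E2f1 and Cdkn2c did not pass the minimum for comparison, and their cycling levels rest on few UMIs.

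The balance between replication and mitosis genes differed between the tumors, in non-cycling as in cycling cells. Of the summed UMIs of 32 replication and 60 mitotic genes in cycling cells, replication genes gave 45.8% (43.7 to 48.0) in the Treg-depleted tumor and 37.3% (36.4 to 38.1) in the control tumor. In non-cycling cells they gave 45.1% (44.3 to 45.9) and 39.5% (38.9 to 40.1). More replication than mitotic UMIs were found in 15 of 37 and 31 of 190 cycling cells. By cluster, the share was 47.1% (44.5 to 49.8) in the 14 cells of cluster 6 of the Treg-depleted tumor, and in the control tumor 39.1% (37.7 to 40.5) in cluster 6, 30.9% (28.5 to 33.5) in cluster 14 and 37.8% (35.3 to 40.3) in cluster 15.

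Inflammatory genes were lower in cycling cells, by more in the Treg-depleted tumor. There all 12 inflammatory genes were at least 2-fold lower, with a median log2 ratio of -2.63. The chemokine Cxcl2 stood at 649 CPM in cycling and 4734 CPM in non-cycling cells, and the cytokine Il1b at 476 and 2155 CPM. Since cycling cells fall in particular clusters, they were also compared with non-cycling cells weighted to the same clusters, where the median was -0.83. Of the 12 in the control tumor, 1 was at least 2-fold lower, with a median of -0.57, and -0.41 weighted to the same clusters. Cxcl2 stood there at 2070 and 3893 CPM, and Il1b at 2169 and 4086 CPM.

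Monocyte genes were also lower. In the Treg-depleted tumor 6 of 9 were at least 2-fold lower (median log2 ratio -1.71, and -0.78 weighted to the same clusters), and 7 of 9 in the control tumor (-1.61, and -0.82 weighted). Plac8 stood at 703 CPM in cycling and 2297 CPM in non-cycling cells of the Treg-depleted tumor, and at 771 and 2285 CPM in the control tumor. Chil3, a chitinase-like protein of monocytes, stood at 23.7 and 400 CPM in the control tumor. Of 9 macrophage genes compared in the Treg-depleted tumor 5 were at least 2-fold lower, and of 10 in the control tumor none was past 2-fold in either direction. Trem2, a lipid receptor, stood at 24.7 and 63.4 CPM in the Treg-depleted tumor, and at 268 and 145 CPM in the control tumor. Csf1r, the receptor of the macrophage growth factor, stood at 49.4 and 170 CPM in the Treg-depleted tumor, and at 158 and 222 CPM in the control tumor.

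Lists of DC and growth genes moved in part. In the Treg-depleted tumor 2 of 3 cDC1 genes compared were at least 2-fold higher in cycling cells (median log2 ratio 1.12, and 0.57 weighted to the same clusters), 1 of 4 cDC2 genes (0.46, and -1.39 weighted) and none of 3 genes of the CCR7 programme (-0.27, and -1.61 weighted). Of 14 lineage transcription factors compared there, 2 were higher and 4 lower by as much. Irf8 and Batf3, transcription factors of cDC1, stood at 955 and 98.7 CPM in cycling, against 342 and 30.9 CPM in non-cycling cells. Irf8 of the control tumor stood at 401 and 474 CPM, and Batf3 at 39.8 and 20.8 CPM. Of 8 cDC1 genes in the control tumor 5 were at least 2-fold higher, with a median of 1.08, or 0.40 weighted to the same clusters, and of 6 cDC2 genes 2 were higher and 1 lower. MHC class II genes had a median log2 ratio of 0.93 in the Treg-depleted tumor, which was 0.01 weighted to the same clusters, and of -0.01 in the control tumor. Of the ribosome biogenesis genes 3 of 9 in the Treg-depleted tumor and 1 of 13 in the control tumor were at least 2-fold higher, with medians of 0.97 and 0.39. Ncl, the nucleolar protein nucleolin, stood at 486 and 248 CPM in the Treg-depleted tumor, and at 390 and 310 CPM in the control tumor.

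**Figure D5:**
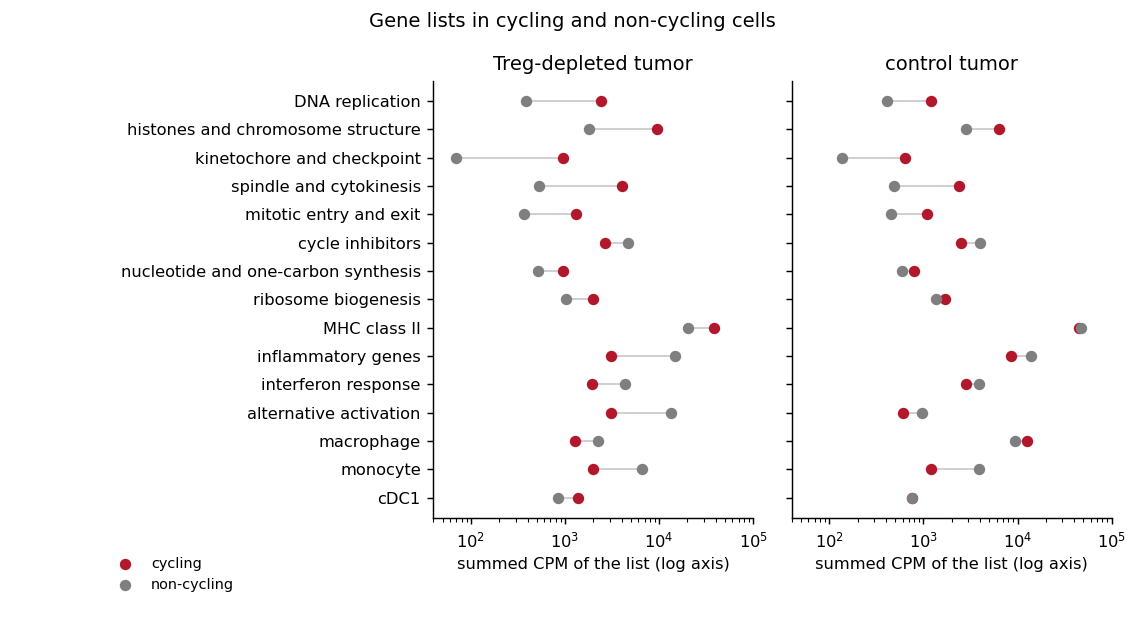
Summed CPM (log axis) of 15 gene lists in cycling (red) and non-cycling (grey) cells of the Treg-depleted tumor (left panel, 37 cycling cells) and the control tumor (right panel, 190 cycling cells). Lists of replication and mitosis lie higher in cycling cells of both tumors and the inflammatory, interferon, alternative activation and monocyte lists lie lower, while the macrophage list lies lower in the Treg-depleted and higher in the control tumor.

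When the cycling cells of the 2 tumors were set against each other, the macrophage list had the median farthest from 0 of the lists compared. Among 5864 genes compared, 5.78% were higher by 2-fold or more and 10.7% lower by as much in the Treg-depleted tumor, or 6.18% and 9.26% with all 38 cells. Of 9 macrophage genes, 8 were at least 2-fold lower, with a median log2 ratio of -3.02, beside -0.04 over all genes. Apoe stood at 27.1 CPM (11 UMIs) in cycling cells of the Treg-depleted tumor and 3136 CPM in those of the control tumor, a log2 ratio of -6.85 (-7.85 to -6.01), and Ms4a7 at 2.47 CPM (1 UMI) and 430 CPM. Non-cycling cells differed the same way in Apoe, with 140 CPM in the Treg-depleted tumor and 3604 CPM in the control tumor. The cytokine gene Il10 had 0 UMIs in the cycling cells of the Treg-depleted tumor and 363 UMIs (95.6 CPM) in those of the control tumor.

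Higher in the cycling cells of the Treg-depleted tumor were Ccl24, Chil3, Ccl17, Plet1, Arg1 and AA467197. Among these genes, non-cycling levels of both tumors are given here for Arg1 only. Whether these differences, and that of Il10, are particular to cycling cells was not tested. The chemokine Ccl24 stood at 1098 CPM in the Treg-depleted tumor and 15.5 CPM in the control tumor. Ccl17, a chemokine of DC, stood at 1792 and 139 CPM, with 282 of its 726 UMIs in the Treg-depleted tumor in 1 cell. Arg1, the arginine-degrading enzyme of alternatively activated macrophages, stood at 768 and 142 CPM. Of the 8 alternative activation genes compared 5 were at least 2-fold higher, although each tumor's cycling cells held less of Arg1 than its non-cycling cells, which stood at 4453 and 258 CPM. Of 7 cDC1 genes 4 were at least 2-fold higher, among them Itgae at 81.5 and 12.9 CPM and Clec9a at 71.6 and 20.3 CPM. In the Treg-depleted tumor Itgae rested on 33 UMIs in 6 cells, and Clec9a on 29 UMIs in 9 cells, 12 of them in 1 cell.

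Within the macrophage-like cluster 6 of the control tumor, cycling cells were compared with neighbours of like type. Of 8373 genes compared, 4.9% were higher by 2-fold or more and 2.7% lower by as much in its 73 cycling cells than in its 370 non-cycling cells. No macrophage gene of 10 was past 2-fold in either direction, with a median log2 ratio of -0.13, while 26 of 29 replication genes and 14 of 14 kinetochore genes were higher. Cells were placed in this cluster by variable genes from which only cell cycle genes were left out. Likeness in its macrophage genes is therefore set in part by the placement. Lower were Ly6c2, with 113 CPM in cycling and 321 CPM in non-cycling cells, the chemokine Ccl5, with 180 and 530 CPM, and the complement gene C3, with 26.0 and 78.5 CPM. Fabp4, a fatty acid carrier, stood at 111 and 34.1 CPM. MHC class II genes had a median of -0.66.

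Within the cDC1-like cluster 14, 6.05% of 4415 genes were higher by 2-fold or more and 7.93% lower by as much in its 17 cycling than in its 82 non-cycling cells. None of 7 cDC1 genes was past 2-fold, which the placement sets in part here too. Ccr7, the receptor that guides DC to lymph nodes, stood at 107 CPM in cycling and 360 CPM in non-cycling cells, a log2 ratio of -1.75 (-2.35 to -1.20). Cd14 stood at 174 and 615 CPM, Cxcl2 at 99.9 and 727 CPM, and Slpi, a protease inhibitor, at 3.70 CPM (1 UMI) and 121 CPM. In the Cd209a cluster 15, where 3.81% of 4913 genes were higher by 2-fold or more and 5.58% lower by as much in its 20 cycling cells, Ccl17 stood at 15.5 CPM in cycling and 162 CPM in non-cycling cells, and Ccl22, a chemokine of mature DC, at 6.20 and 63.6 CPM. Of 6 cDC2 genes compared there, 3 were at least 2-fold lower and none higher, with a median log2 ratio of -1.09. Of 10 inflammatory genes, 3 were at least 2-fold higher and none lower, with a median of 0.15.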

How the data were processed

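Single-cell RNA was measured in 3 libraries made with the Chromium 3′ v2 kit. Per the submitters' processing notes, the tools were Cell Ranger 1.2 and the build mm10. What the authors deposited are unfiltered UMI counts, 27998 genes by 737280 barcodes, so cells were called anew. Barcodes with at least 1000 UMIs, 400 genes and at most 10% mitochondrial UMIs were kept (median depth 3820 UMIs in the Treg-depleted tumor, 6452 in the control tumor and 3550 in blood). Kept tumor libraries shared 36 barcodes, against 26.7 expected at random, and no cycling cell.

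Counts were summed over a class and divided by its total (CPM). Ratios carry conditional exact Poisson intervals, levels exact Poisson and shares Clopper-Pearson intervals, all at 95%. Genes were compared where the pooled level predicted at least 5 UMIs in the smaller class, and called at 2-fold. Non-cycling cells were clustered per tumor with scanpy 1.11.5: 2000 variable genes without 153 cell cycle genes, 30 principal components, 20 neighbours, Leiden resolution 1. Doublets were kept, except in one alternative, and marked from how many of a cell's 30 neighbours were simulated doublets; 157 and 158 cells of the Treg-depleted and control tumor were marked, with 0 and 9 cycling cells among them. A share of 0 is given with the limit that 3 cells allow, which is lower than the upper end of its exact interval.

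The members and the 33 gene lists (370 of 374 genes found) were chosen with earlier results of these data known. Genes named are list members, identity genes of the gate, or among the 12 largest and 12 smallest CPM ratios of a comparison, taken over genes that reached 50 CPM and 100 UMIs in its higher class; the comparisons within clusters were added after the data were seen. The ratio and interval code was tested on simulated data. Alternatives were other thresholds, thinning, other filters, doublet removal, other clusterings, cluster weighting and rescaling.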

Additional observations from a re-analysis of the deposited data

Results flagged for a closer look

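The log2 ratio of C1q between cycling and non-cycling cells had opposite signs in the 2 tumors: -0.31 in the Treg-depleted tumor (all 38 cells) and 0.73 in the control tumor. The difference between the tumors was not tested, since each is 1 library. In the Treg-depleted tumor much of the C1q of cycling cells came from the 3 cells placed in cluster 3, at 5310 CPM. By cell they held 0.980, 96.0 and 56.2 C1q UMIs per 10000 UMIs. The sign in the Treg-depleted tumor changed with the comparison: it was 0.16 (-0.31 to 0.60) after thinning to 3000 UMIs, -0.35 (-0.51 to -0.20) against non-cycling cells of similar depth, and 0.25 against non-cycling cells weighted to the same clusters, where the control tumor had 0.13. The cause was not tested.

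The blood library was not part of the comparisons. Its 19 cycling cells held 44058 CPM of the neutrophil list and 849 CPM of the myeloid progenitor list (genes such as Kit, Mpo and Elane), against 5835 and 31.1 CPM in its non-cycling cells. In cycling cells of the Treg-depleted tumor these lists stood at 56.8 and 14.8 CPM, and in those of the control tumor the progenitor list stood at 25.5 CPM, with 76 UMIs of the neutrophil list in all. The cycling cells of blood therefore differ in their genes from those of either tumor.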

How the results depend on the processing

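Shares of cycling cells depended on the threshold and on depth. With minimum sums of 3 and 8 UMIs they were 1.49% and 0.519% in the Treg-depleted tumor, and 6.14% and 3.20% in the control tumor. Thinned to 3000 UMIs with a minimum of 5 they were 0.425% and 0.908%, and with a minimum of 3 the control tumor had 2.04%. Without Top2a the Treg-depleted tumor had 0.541%, and without Birc5 or Ccnb2 the control tumor had 3.42% or 3.69%.

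The C1q log2 ratio of the Treg-depleted tumor reversed after thinning, to 0.16 with a minimum of 5 and 0.18 with a minimum of 3; the cause was not tested. Weighted to the same clusters it was 0.25, and 0.13 in the control tumor. In the control tumor it stayed positive under every alternative run and left its narrow counting interval under these: 0.82 and 0.69 with minimum sums of 3 and 8, 0.84 and 0.81 thinned with minimums of 5 and 3, 0.69 with the library-specific UMI minimum, 0.75 at no more than 5% mitochondrial UMIs, 0.75 without doublets, 0.60 against cells with a sum of at most 1 and 0.25 against cells of similar depth. The Ly6c2 ratio stayed negative, with -1.50 in the Treg-depleted tumor thinned with a minimum of 3, and in the control tumor -2.67 and -2.48 thinned with minimums of 5 and 3, and -1.16 at similar depth. At Leiden resolution 0.5, 26.8% of cycling control cells fell in Flt3-high and 66.8% in C1q-high clusters. Of list medians, that of the NK cell list in the control tumor, from 3 genes, reversed to 1.83 when weighted to the same clusters, and that of the cDC2 list in the Treg-depleted tumor, from 4 genes, was -1.39 so weighted, against 0.46 unweighted. With that one, 20 values of single genes and lists moved, the others with no change of sign. The other 53 recomputed values of the main results stayed within their counting intervals. Thinning with a minimum of 3, the comparison at similar depth, the genes left out and the melanoma-gene cell were chosen after seeing the data.

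Gene levels of the Treg-depleted tumor rest on 37 cells with 405165 UMIs. No paired analysis was possible because each group is 1 library.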

Other observations

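Of the growth factor receptors, 8 passed the minimum for comparison in the Treg-depleted tumor, of which none was higher and 4 were lower by 2-fold or more in cycling cells (median log2 ratio -0.94). Of 11 in the control tumor, 1 was higher and 1 lower (median -0.35). Kit, the receptor of stem cell factor, stood at 12.3 CPM (5 UMIs) in cycling and 3.02 CPM in non-cycling cells of the Treg-depleted tumor, and its log2 ratio in the control tumor was 1.29 (0.90 to 1.67). Csf2rb, the shared chain of the GM-CSF receptor, stood at 326 and 418 CPM in the Treg-depleted tumor, and at 368 and 430 CPM in the control tumor. Retnla, a secreted protein of alternative activation, stood at 187 CPM in cycling and 47.2 CPM in non-cycling cells of the control tumor, but 300 of its 710 UMIs came from 1 cell.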
